A study of Mus musculus with 15 samples.

Results

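The protein arginine methyltransferases (PRMTs) make up a family of 9 genes in the mouse, Prmt1, Prmt2, Prmt3, Carm1, Prmt5, Prmt6, Prmt7, Prmt8 and Prmt9. The members were chosen by gene symbol in both deposited tables of normalized counts, where all 9 were found among 34432 genes, and 8 of them passed the minimum of 10 normalized counts in at least 3 libraries and were tested. The question was whether any other member moved when Prmt1 was depleted or inhibited. RNA was sequenced from CT26, a mouse colon tumor cell line, in 2 experiments of 6 and 9 libraries, with 3 libraries per group. In the first, cells with a control hairpin (shControl) were compared with cells of a stable line with a doxycycline-inducible hairpin against Prmt1 (shPrmt1) after 3 days of doxycycline. The labels do not say whether shControl cells had doxycycline, and 1 hairpin was used, so that doxycycline and the hairpin's other targets cannot be told apart from the loss of Prmt1. In the second, wild-type CT26 cells were given vehicle, 6 µM MS023 or 6 µM GSK3368715, both inhibitors of type I PRMTs, for 48 hours. The labels do not say whether the 3 libraries of a group came from separate cultures, so p-values measure the spread between these libraries only.

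PRMTs move methyl groups from S-adenosylmethionine to arginine residues of histones, RNA-binding proteins and signaling proteins. All of them can make monomethylarginine. Type I enzymes (Prmt1, Prmt2, Prmt3, Carm1, Prmt6 and Prmt8) go on to asymmetric dimethylarginine, type II enzymes (Prmt5 and Prmt9) to symmetric dimethylarginine, and the type III enzyme Prmt7 stops at monomethylarginine. PRMT1 is known as the main source of asymmetric dimethylarginine in mammalian cells, and when it is lost its substrates can become open to other members of the family.

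Recovered reads per library ran from 17284091 to 29233738 in the knockdown experiment and from 40119305 to 93697833 in the inhibitor experiment. In a chi-square comparison of reads over genes, given per degree of freedom, shPrmt1 library 2 stood at 23.7 and 22.5 from the other shPrmt1 libraries, which were 4.41 apart, and vehicle library 2 at 79.6 and 46.3 from the other vehicle libraries, which were 21.2 apart. Without shPrmt1 library 2, 2472 genes were called in the knockdown against 1684 with it, and Prmt1 remained the 1 member called. Without vehicle library 2, Prmt5 was called with MS023 and Prmt9 with GSK3368715 (values below). The label of colon tumor cells was checked against epithelial markers: Epcam and Cldn4 were at 0 in all 15 libraries, 6 of 8 epithelial markers averaged under 10 normalized counts in the knockdown table and 4 of 8 in the inhibitor table, and Krt18 and Krt20 were detected. The summed epithelial level was 724 to 810 in shControl and 541 to 660 in shPrmt1 libraries, 1243 to 1412 with vehicle, 1758 to 1851 with MS023 and 1406 to 1591 with GSK3368715, and its part in the results below was not tested. Fibroblast and mesenchymal markers summed to 62347 to 76154 and 206798 to 229019, carried by Vim, immune markers to 25.1 to 46.1 and 198 to 280, mostly Cd68, and endothelial markers to 2.42 to 12.3 and 18.7 to 37.4 normalized counts. Among these markers Col1a1 was higher in the knockdown (mean 2116 to 4207, log2 change 0.97, limma with Benjamini-Hochberg adjustment, adjusted p = 0.0082) and lower with MS023 (18543 to 13071, -0.52, adjusted p = 0.0032). Krt18 was lower in the knockdown (572 to 431, -0.41, adjusted p = 0.031) and higher with MS023 (941 to 1372, 0.55, adjusted p = 0.00069) and GSK3368715 (1137, 0.27, adjusted p = 0.049), and Krt8 was higher with MS023 (7.43 to 24, 1.83, adjusted p = 0.033). Their part in the members' results was not tested.

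Promoter sequence is shown for Prmt1, the targeted gene, and for Prmt3 and Prmt9, which moved in opposite directions under MS023 (below). The RefSeq table (GRCm38.p6, 250 bases before to 50 after a start) held 8 of the 9 members, without Carm1. The stretches below are the parts of those windows outside annotated exons, 5′ to 3′ on the gene's strand, and capitals mark matches on either strand to a searched motif. Prmt1 is at chr7:44986569-44986670 on the minus strand, 102 bases that end 148 bases before the start. The rest of its window is not shown and held GC boxes at -128 and -105 and CCAAT boxes at -68 and -27 from the start. Prmt3 is at chr7:49778108-49778350 on the plus strand, and its last 5 bases lie in the first annotated exon. Prmt9 is at chr8:77549147-77549396 on the plus strand.
Prmt1: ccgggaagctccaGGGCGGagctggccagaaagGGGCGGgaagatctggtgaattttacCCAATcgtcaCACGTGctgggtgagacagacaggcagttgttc
Prmt3: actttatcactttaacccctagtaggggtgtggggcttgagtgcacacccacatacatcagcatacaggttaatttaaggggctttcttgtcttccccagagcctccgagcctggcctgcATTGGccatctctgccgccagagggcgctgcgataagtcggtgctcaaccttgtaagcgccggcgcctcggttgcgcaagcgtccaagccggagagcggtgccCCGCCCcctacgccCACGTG
Prmt9: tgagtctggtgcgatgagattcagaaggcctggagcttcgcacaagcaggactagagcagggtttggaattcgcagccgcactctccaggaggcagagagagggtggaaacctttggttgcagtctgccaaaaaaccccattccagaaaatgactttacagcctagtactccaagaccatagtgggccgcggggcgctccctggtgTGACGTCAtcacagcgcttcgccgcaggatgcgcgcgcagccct

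The E-box CACGTG was in the windows of 2 of the 8 members, Prmt1 and Prmt3, and in 8.09% of the 27025 genes of the table. The cAMP response element TGACGTCA was in that of Prmt9 alone among the members, and in 2.03% of all genes. A GC box (GGGCGG) was found in 5 of 8 members against 38.2% of genes, a CCAAT box (CCAAT) in 4 of 8 against 41.1%, and the NRF1 motif in Prmt2 alone against 5.19%. The core of the interferon-stimulated response element (ISRE) and the interferon-gamma activated sequence TTCNNNGAA were in none of the 8 windows and in 3.99% and 9.55% of all genes. Matches to different motifs did not overlap each other in the members' windows. The window of Prmt7, also called lower under MS023 and not shown above, held a GC box and no other searched motif. Whether a motif goes with a direction of change was not tested. A match is a description of letters and not of a bound site.

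In the control libraries of both experiments Prmt1 was the leading transcript of the family. Levels of different genes were compared as normalized counts per kilobase of the union of a gene's exons, each member as a percent of the sum over the 9 members. In shControl cells Prmt1 made up 46.9% ± 0.36 (SD, n = 3) of this sum. Prmt5 followed with 16% ± 0.41 (SD, n = 3), Carm1 with 13.7% ± 0.39, Prmt3 with 7.20% ± 0.22, Prmt6 with 5.15% ± 0.15, Prmt2 with 4.39% ± 0.21, Prmt7 with 4.36% ± 0.18 and Prmt9 with 2.28% ± 0.16 (all SD, n = 3). Prmt2 and Prmt7 differed by less than their spread, and the other neighbours in this order did not overlap between libraries. The order of Prmt6, Prmt2 and Prmt7 depended on the length used. Per kilobase of the longest transcript, Prmt7 (4.67% to 5.05%) lay above Prmt6 (4.39% to 4.65%) in shControl libraries. Prmt2 (4.27% to 4.69%) then overlapped both. In vehicle-treated cells of the second experiment Prmt1 made up 47.5% ± 0.97 (SD, n = 3). Prmt5 had 13.7% ± 0.46 and Carm1 13.1% ± 0.49 (SD, n = 3), whose libraries overlapped. Part of the Carm1 exons (21.1% of their union) overlaps Yipf2 on the opposite strand, and 23.4% of those of Prmt6 overlaps the antisense gene C130013H08Rik, so that their counts could hold reads of those genes where strand was not used, which the sources used here do not give.

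Prmt8, a membrane-bound paralog of Prmt1 best known from brain, was at 0 to 3 reads in every library. Its normalized counts were 1.76, 1.44 and 1.11 in shControl libraries and 0, 1.21 and 0 in shPrmt1 libraries. With vehicle they were 0, 0.825 and 3.62, with MS023 0.625, 2.19 and 2.91, and with GSK3368715 0, 1.07 and 1.49. No library passed the floor of 3 reads, so no fold is given, and a difference in Prmt8 was not detectable at this depth. Prmt8 shares 8 of its 31-base words with Prmt1, the most that any pair of members shares.

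**Figure D1:**
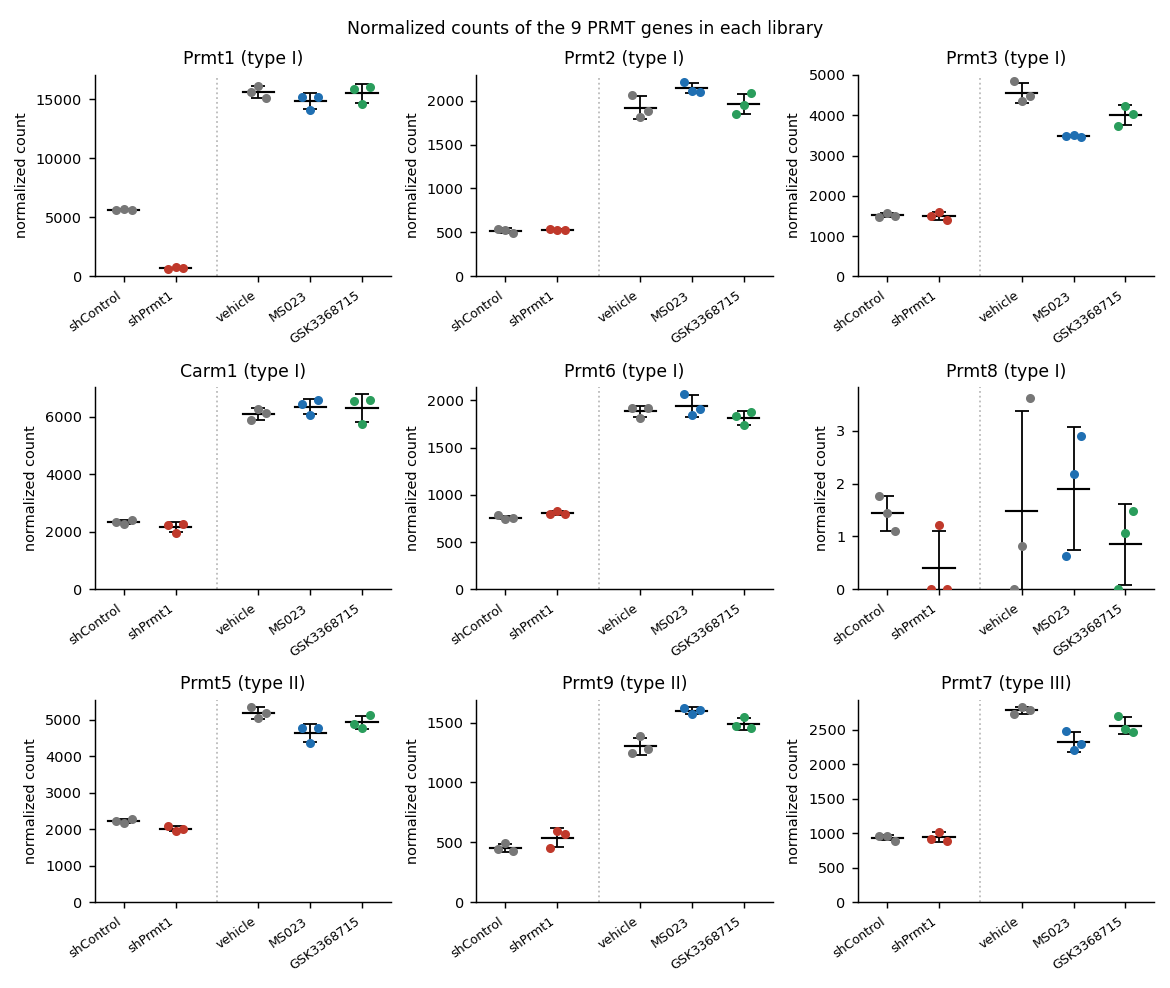
Normalized counts (y axis, from 0, a scale of its own in each panel) of the 9 PRMT genes in each of the 15 libraries, with points for libraries, horizontal lines for group means and bars for SD (n = 3). The dotted line separates the knockdown from the inhibitor experiment, which were normalized separately, and the Prmt1 panel shows shPrmt1 libraries at 669 to 761 against 5601 to 5717 in shControl.

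The knockdown lowered Prmt1 and no other member was called. Prmt1 (ENSMUSG00000109324, mm10 chr7:44975989-44986568, minus strand, 11 exon blocks) had 5601, 5717 and 5620 normalized counts in shControl libraries and 669, 761 and 683 in shPrmt1 libraries. The 3 shPrmt1 libraries were all far below the controls, with a mean of 704 ± 49.8 (SD, n = 3) against 5646 ± 62.2 (SD, n = 3), or 12.5% of control. On the scale of log2(normalized count + 1) the change was -3.0 ± 0.07 (SE; limma with Benjamini-Hochberg adjustment, adjusted p = 3.79e-07). One of the 8 members tested was called, against 14.7% of the 11485 genes tested. Of the other 7 none was called in either direction by limma, edgeR or DESeq2, and 1 had an unadjusted p below 0.05. By limma 7.50% of all genes were called higher and 7.17% lower. Among the 11485 genes, 3580 had an unadjusted p below 0.05, edgeR called 1712 and DESeq2 2151. Groups did not overlap for 4 of the 8 members, against 38.0% of all genes. The median log2 change of the 7 was 0.01, and that of all genes -0.0036. In bulk RNA, less Prmt1 in every cell and its loss from a fraction of cells cannot be told apart.

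Among the other type I enzymes the values stayed near those of the control hairpin. Prmt2, a coactivator of nuclear receptors, had 542, 531 and 493 normalized counts in shControl and 544, 525 and 531 in shPrmt1 libraries, with a log2 change of 0.03 (95% interval -0.15 to 0.21). Prmt3, which methylates the ribosomal protein RPS2, had 1473, 1573 and 1510 in shControl and 1492, 1598 and 1397 in shPrmt1 libraries, a log2 change of -0.02 (95% interval -0.19 to 0.14). For both genes the groups overlapped. Carm1, a coactivator that methylates histone H3, had 2335, 2287 and 2405 in shControl and 2227, 1958 and 2286 in shPrmt1 libraries. Its groups just failed to overlap, the shPrmt1 libraries being lower, and the log2 change was -0.12 (95% interval -0.29 to 0.05). Prmt6, the nuclear enzyme that methylates histone H3 at arginine near its N-terminus, had 783, 745 and 752 in shControl and 798, 833 and 796 in shPrmt1 libraries. All 3 shPrmt1 libraries were higher, with a log2 change of 0.09 (95% interval -0.07 to 0.25; limma with Benjamini-Hochberg adjustment, adjusted p = 0.41).

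The type II and type III enzymes were not called either. Prmt5, the main symmetric methyltransferase, had 2235, 2174 and 2272 normalized counts in shControl and 2081, 1943 and 2011 in shPrmt1 libraries. Every shPrmt1 library was below every control, with a log2 change of -0.15 (95% interval -0.29 to -0.0094), an unadjusted p of 0.039 and an adjusted p of 0.14 by limma with Benjamini-Hochberg adjustment. Prmt9, which methylates the splicing factor SF3B2, had 446, 491 and 427 in shControl and 452, 595 and 573 in shPrmt1 libraries. One shPrmt1 library lay among the controls and 2 above, and the log2 change was 0.24 (95% interval -0.04 to 0.51; limma with Benjamini-Hochberg adjustment, adjusted p = 0.21). Prmt7 had 965, 959 and 891 in shControl and 918, 1021 and 894 in shPrmt1 libraries, which overlapped, with a log2 change of 0.01 (95% interval -0.17 to 0.19). The interval of Prmt9 reached highest, to a fold of 1.43, and those of the other 6 members ended at or below a fold of 1.19.

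Summed over members, the transcripts lost with Prmt1 were not offset by the others. Per kilobase, Prmt1 fell by 1443 normalized counts, from 1649 ± 18.2 to 206 ± 14.5 (SD, n = 3). The sum of the other 8 members was 1868 ± 7.03 in shControl and 1802 ± 14.2 in shPrmt1 libraries (SD, n = 3), 96.5% of control. That of the 5 other type I members was 1072 ± 2.89 and 1045 ± 18.3 (SD, n = 3), 97.5% of control. The family sum was at 57.1% of control. Within it the share of Prmt1 went from 46.9% to 10.2% ± 0.72 (SD, n = 3), and Prmt5 led with 25.3% ± 0.86, before Carm1 with 22.1% ± 1.81, Prmt3 with 12.4% ± 0.82 and Prmt1 (SD, n = 3). The larger shares of the other members go with the smaller sum. The sums depend on the scaling of the libraries and the shares do not.

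**Figure D2:**
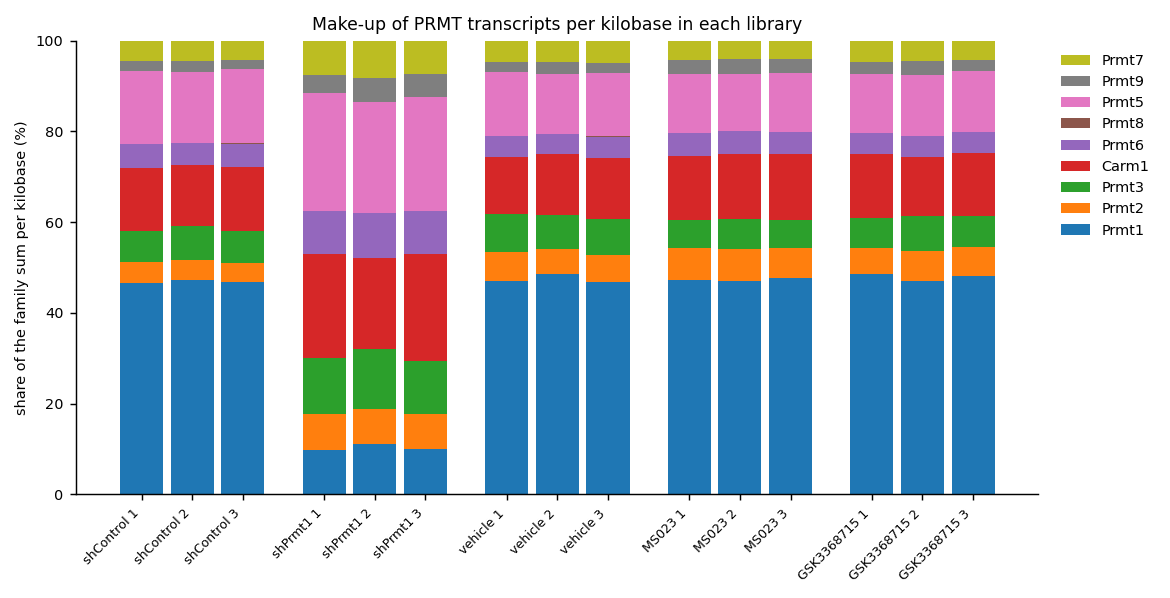
Share of each member in the family sum of normalized counts per kilobase of exon (y axis, percent) in each of the 15 libraries, 1 stacked bar per library. Prmt1 takes 46.6% to 47.3% in shControl and 9.72% to 11.1% in shPrmt1 libraries, and 46.8% to 48.6% across the inhibitor experiment.

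With MS023, Prmt3 and Prmt7 were lower and Prmt9 was higher, while Prmt1 itself was not called. Of 8 members, 3 were called (limma with Benjamini-Hochberg adjustment), against 27.9% of the 13014 genes tested, 1 higher against 13.7% of genes and 2 lower against 14.1%. Groups did not overlap for 5 of 8 members, against 44.5% of genes. EdgeR called 3 members and DESeq2 4, against 3620 and 4026 of the 13014 genes. Prmt3 (ENSMUSG00000030505, mm10 chr7:49778346-49858265, plus strand) had 4837, 4353 and 4479 normalized counts with vehicle and 3480, 3499 and 3457 with MS023. The MS023 libraries were tightly grouped and all below vehicle. The means were 4556 ± 251 and 3479 ± 20.8 (SD, n = 3), and Prmt3 fell by 0.39 ± 0.06 on the log2 scale (SE; limma with Benjamini-Hochberg adjustment, adjusted p = 0.0012), a fall that was called under all 20 alternatives tried.

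Prmt9 (ENSMUSG00000037134, mm10 chr8:77549397-77581338, plus strand) had 1243, 1384 and 1276 normalized counts with vehicle and 1624, 1572 and 1603 with MS023. All MS023 libraries were above vehicle, and Prmt9 rose by 0.30 ± 0.06 on the log2 scale (SE; limma with Benjamini-Hochberg adjustment, adjusted p = 0.0055), which was called under all 20 alternatives. Prmt7 (ENSMUSG00000060098, mm10 chr8:106210936-106252794, plus strand) had 2730, 2824 and 2793 with vehicle and 2489, 2205 and 2287 with MS023, where every library was lower. It fell by 0.26 ± 0.06 on the log2 scale (SE; limma with Benjamini-Hochberg adjustment, adjusted p = 0.011). Its call was lost without MS023 library 2, with a change of -0.22 and an adjusted p of 0.052, and with libraries rescaled to the same upper quartile, with -0.20 and 0.12.

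Prmt5 and Prmt2 lay at the edge of the test under MS023. Prmt5 had 5370, 5047 and 5189 normalized counts with vehicle and 4789, 4358 and 4788 with MS023, all lower. Its log2 change of -0.16 (95% interval -0.29 to -0.04) had an adjusted p of 0.0501 by limma with Benjamini-Hochberg adjustment. Prmt5 was called under 5 of 20 alternatives, among them DESeq2 (-0.16, adjusted p = 0.033). Another was the fit without vehicle library 2, with -0.19 and an adjusted p of 0.0499. Prmt2 had 2063, 1810 and 1886 with vehicle and 2209, 2110 and 2102 with MS023, all higher. Its log2 change of 0.16 (95% interval 0.01 to 0.31) had an adjusted p of 0.11 and was called under 2 of 20 alternatives, at 0.22 (adjusted p = 0.046) with the same upper quartile and at 0.21 (adjusted p = 0.045) without vehicle library 1. Prmt1 had 15593, 16107 and 15133 with vehicle and 15215, 14064 and 15201 with MS023, with overlap and a log2 change of -0.07 (95% interval -0.20 to 0.05). Carm1 and Prmt6 overlapped too, at 0.06 (95% interval -0.08 to 0.20) and 0.04 (95% interval -0.10 to 0.18).

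With GSK3368715 at the same dose and time, no member was called by limma with Benjamini-Hochberg adjustment, against 9.64% of the 13014 genes tested, 5.16% higher and 4.47% lower. Of the 8, 2 had an unadjusted p below 0.05, edgeR called 0 and DESeq2 called 2. The same counts over all 13014 genes were 3393, 1242 and 1794. Groups did not overlap for 3 of 8 members, against 27.7% of genes. Those 3 were Prmt3, Prmt9 and Prmt7. Prmt3 had 3735, 4237 and 4024 normalized counts, all below vehicle, with a log2 change of -0.19 (95% interval -0.32 to -0.05, adjusted p = 0.077). Prmt9 had 1470, 1549 and 1456, all above vehicle, with a log2 change of 0.20 (95% interval 0.06 to 0.34, adjusted p = 0.071). It was called without vehicle library 2, at 0.24 with an adjusted p of 0.041. Prmt7 had 2702, 2509 and 2469, all below vehicle, with a log2 change of -0.12 (95% interval -0.26 to 0.02, adjusted p = 0.25). DESeq2 called Prmt3 and Prmt9, with adjusted p of 0.044 and 0.048.

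The other members with GSK3368715 overlapped with vehicle. Prmt1 had 15844, 14566 and 16057 normalized counts, a log2 change of -0.01 (95% interval -0.14 to 0.11). Prmt5 had 4894, 4784 and 5128, with -0.08 (95% interval -0.20 to 0.05). Changes of Prmt2, Carm1 and Prmt6 were 0.03, 0.04 and -0.05, with intervals that together ran from -0.19 to 0.18. Per kilobase, Prmt1 kept 47.3% ± 0.35 of the family with MS023 and 48% ± 0.75 with GSK3368715 (SD, n = 3), and the other 8 members summed to 4820 ± 166 and 4903 ± 137 against 5032 ± 70.3 with vehicle (SD, n = 3), 95.8% and 97.5% of it.

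**Figure D3:**
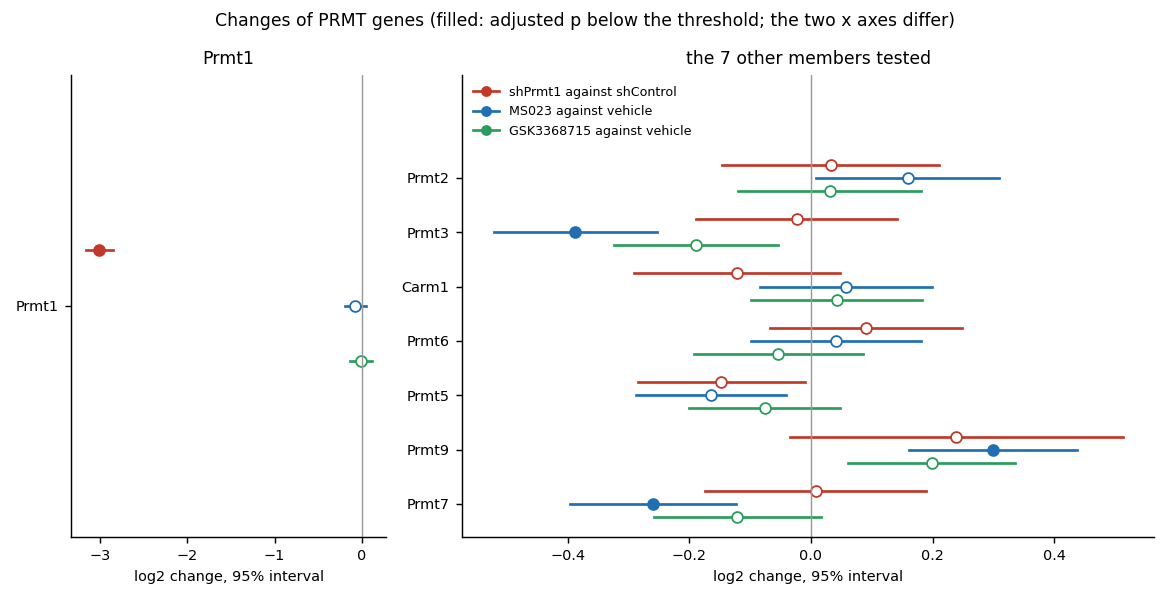
Log2 change (x axis) with its 95% interval from limma for the 8 members tested, in shPrmt1 cells against shControl and under each inhibitor against vehicle, with filled points where the adjusted p was below 0.05. Prmt1 has a panel and axis of its own, at -3.0 in the knockdown, and the filled points among the others are Prmt3, Prmt9 and Prmt7 with MS023.

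MS023 and GSK3368715 share their vehicle libraries, so the 2 compounds, 1 pair at a matched dose and time, were compared directly. None of the 8 members differed by limma with Benjamini-Hochberg adjustment, against 0.515% of all genes. Among the members 2 had an unadjusted p below 0.05, and edgeR and DESeq2 called 0. Among all 13014 genes, 1722 had an unadjusted p below 0.05, edgeR called 69 and DESeq2 365. Prmt3 was lower with MS023 in all libraries, and Prmt2 and Prmt9 were higher in all. The share of all genes whose groups do not overlap was not computed for this comparison. For Prmt3 the log2 difference was -0.20 (95% interval -0.33 to -0.06, adjusted p = 0.20). For Prmt7 the difference was -0.14 (95% interval -0.28 to -0.0016, adjusted p = 0.37), for Prmt9 0.10 (95% interval -0.04 to 0.24) and for Prmt1 -0.06 (95% interval -0.19 to 0.06). The intervals of Prmt2, Carm1, Prmt5 and Prmt6 ran together from -0.21 to 0.28.

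The knockdown change and the inhibitor changes differed for Prmt1 itself and, with MS023, for Prmt3. The experiments also differ in cell line, doxycycline and treatment time. Both compounds inhibit type I PRMTs, a class that includes Prmt3, and not Prmt1 alone. Which of these the Prmt3 difference goes with was not tested. The knockdown change minus the MS023 change, each against its own controls in 1 fit over 15 libraries, was called for 2 of 8 members, against 7.63% of genes. Prmt1 is the hairpin's target, so its call follows from the design. Of the 7 other members 1 was called. For Prmt1 it was -2.93 ± 0.08 (SE; limma with Benjamini-Hochberg adjustment, adjusted p = 1.03e-11). For Prmt3 it was 0.36 ± 0.09 (SE; limma with Benjamini-Hochberg adjustment, adjusted p = 0.026), Prmt3 being lower under MS023 and not called in the knockdown. The Prmt3 difference missed the threshold without shControl library 1 (0.34, adjusted p = 0.067) or 3 (0.36, 0.060), vehicle library 1 (0.32, 0.058) or 3 (0.38, 0.051), or any MS023 library (0.36 to 0.37, 0.054 to 0.064), and with the same upper quartile (0.28, 0.10). Prmt7 showed 0.27 (95% interval 0.06 to 0.47, adjusted p = 0.11) and Prmt9 -0.06 (95% interval -0.34 to 0.22). Against GSK3368715 the difference was called for 1 of 8 members, Prmt1, at -2.99 ± 0.08 (SE; adjusted p = 7.54e-12), against 4.11% of genes, and for Prmt3 it was 0.16 (95% interval -0.03 to 0.36). Here 0 of the 7 members other than Prmt1 were called.

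The genes whose pattern over the 15 libraries was most like a member's were found by Pearson's r of log2 values, each taken from the mean of its own experiment's controls, among the 10174 genes that averaged 50 or more normalized counts in each table. The libraries share their groups, so r follows the group differences. For Prmt1 they were Rgl1 (r = 0.98), Wdr45b (0.98) and Timm29 (0.98), which fell by 0.82, 0.64 and 0.58 on the log2 scale in the knockdown. For Prmt3 they were Ddx59 (r = 0.98), Ahi1 (0.96) and Mthfd2 (0.96), with MS023 changes of -0.53, -0.50 and -0.27. For Prmt7 they were Fhdc1 (0.95), Exosc1 (0.94) and Zw10 (0.94), and for Prmt9 Cnot11 (0.95), Tmem168 (0.94) and Dmxl2 (0.90).

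Around the family, 8 partners and regulators of PRMTs were tested, and their counts are read beside the shares of all genes called, 14.7% in the knockdown, 27.9% with MS023 and 9.64% with GSK3368715. Of the 8, 1 was called higher in the knockdown, and 1 higher and 2 lower with MS023, by limma with Benjamini-Hochberg adjustment. With GSK3368715 limma called 0, 2 had an unadjusted p below 0.05, edgeR called 0 and DESeq2 1. Among all 13014 genes with GSK3368715, 3393 had an unadjusted p below 0.05, edgeR called 1242 and DESeq2 1794. The list's median log2 changes were -0.03, -0.04 and -0.04, and those of all genes were -0.0036, 0.0028 and 0.00042. Riok1, a kinase that brings substrates to PRMT5, had 4257, 3751 and 4083 normalized counts with vehicle and 3171, 3313 and 3182 with MS023, all lower, and fell by 0.32 on the log2 scale (adjusted p = 0.0025). Coprs, which brings PRMT5 to histones, had 540, 550.5 and 502 with vehicle and 680, 718 and 706 with MS023, all higher, and rose by 0.40 (adjusted p = 0.0037). Wdr77, the obligate partner MEP50, had 8379, 8732 and 8558 and then 7906, 7179 and 7345, and fell by 0.20 (adjusted p = 0.025). Its call was lost without vehicle library 2 or 3 or MS023 library 2 or 3 (-0.17 to -0.20, adjusted p of 0.059 to 0.10) and with the same total (-0.16, 0.053), and 28.7% of its exon union overlaps Gm42890 on the same strand. Of these partners of PRMT5, the knockdown change differed from the MS023 change for Riok1, at 0.39 (adjusted p = 0.01), and was not called to differ for Coprs, Wdr77 or Clns1a. Clns1a, the partner pICln, passed in no comparison, with log2 changes of -0.03, -0.03 and -0.0056. Btg2, an antiproliferative cofactor that binds PRMT1, had 82.8, 77.0 and 71.9 normalized counts in shControl and 188, 196 and 192 in shPrmt1 libraries, and rose by 1.30 on the log2 scale (adjusted p = 0.00042). Its paralog Btg1, also a PRMT1 partner, passed in no comparison, with log2 changes of -0.07, 0.0014 and 0.0080.

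Both arginine methyltransferases outside the family passed with MS023. Mettl23, which methylates histone H3, had 103, 106 and 100.6 normalized counts in shControl and 52.6, 67.9 and 51.0 in shPrmt1 libraries, and fell by 0.85 on the log2 scale (limma with Benjamini-Hochberg adjustment, adjusted p = 0.011). It also fell by 0.39 with MS023 (adjusted p = 0.041) and had -0.13 (95% interval -0.41 to 0.15) with GSK3368715. The knockdown call was lost without shControl library 1 or 2 (-0.85 and -0.83, adjusted p of 0.054 and 0.0502). The MS023 call was lost without vehicle library 1 or 3, GSK3368715 library 3 or MS023 library 1 or 3 (-0.27 to -0.44, adjusted p of 0.053 to 0.12), and with no filter, the same total or only the groups compared (adjusted p of 0.060 to 0.070). Mettl23 overlaps Srsf2, Mfsd11 and Jmjd6, and 41.6% of its 31-base words occur in other genes, so its counts are uncertain. Ndufaf7, the mitochondrial enzyme that methylates a subunit of complex I, rose by 0.26 with MS023 (adjusted p = 0.0067). Its libraries were also all higher in the knockdown, with 0.26 (95% interval 0.07 to 0.44, adjusted p = 0.065), and with GSK3368715, with 0.20 (95% interval 0.07 to 0.32, adjusted p = 0.055). The list's counts were thus 1 of 2 lower in the knockdown, 1 higher and 1 lower with MS023 and 0 of 2 with GSK3368715. Of all genes, 14.7%, 27.9% and 9.64% were called in either direction. With GSK3368715, 1 of the 2 had an unadjusted p below 0.05, and edgeR and DESeq2 called 1 each. The counts over all 13014 genes there were 3393, 1242 and 1794. The list's median log2 changes were -0.30, -0.06 and 0.03.

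Of 5 Tudor-domain readers and partners tested, 1 was lower in the knockdown and 2 were lower with MS023 by limma with Benjamini-Hochberg adjustment. With GSK3368715 0 were called (3 at an unadjusted p below 0.05, 1 by edgeR and 3 by DESeq2). Among all 13014 genes, 3393 had an unadjusted p below 0.05, edgeR called 1242 and DESeq2 1794. Of all genes, 14.7%, 27.9% and 9.64% were called in either direction, and 7.17%, 14.1% and 4.47% were called lower. The list's median log2 changes were -0.06, -0.10 and -0.03. Top3b, the topoisomerase bound by the reader TDRD3, had 329, 305 and 301 normalized counts in shControl and 149, 215 and 198 in shPrmt1 libraries, and fell by 0.75 (adjusted p = 0.012). The call was lost without shControl library 1 (-0.71, adjusted p = 0.060). With MS023 Top3b fell by 0.62 (adjusted p = 0.011), and with GSK3368715 it had -0.52 (95% interval -0.85 to -0.19, adjusted p = 0.054). Smndc1, a splicing factor with a Tudor domain, fell by 0.27 with MS023 (adjusted p = 0.0035). Tdrkh was under the minimum and was not tested.

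Of 14 RNA-binding substrates with RGG motifs, 1 was higher in the knockdown, 1 higher and 2 lower with MS023, and 2 higher and 1 lower with GSK3368715, against 14.7%, 27.9% and 9.64% of all genes called in either direction. With MS023, edgeR called 4 and DESeq2 7 of the 14, against 3620 and 4026 of the 13014 genes tested. The median log2 changes were 0.01, -0.06 and -0.03. Chtop, which binds PRMT1 and is part of mRNA export complexes, had 3608, 3638 and 3685 normalized counts in shControl and 4121, 4324 and 4112 in shPrmt1 libraries, all higher. It rose by 0.20, 0.24 and 0.29 on the log2 scale in the knockdown, with MS023 and with GSK3368715 (limma with Benjamini-Hochberg adjustment, adjusted p of 0.044, 0.0044 and 0.0053). The knockdown call was lost without any shControl library or without shPrmt1 library 1 or 3 (0.19 to 0.21, adjusted p of 0.078 to 0.17), and with no filter, the same upper quartile or no trend (adjusted p of 0.066 to 0.097). Cirbp, a cold-inducible RNA-binding protein, fell by 0.62 with MS023 (adjusted p = 0.0055) and by 0.48 with GSK3368715 (adjusted p = 0.041), the latter lost in 8 of 9 fits without 1 library of that experiment, all but that without vehicle library 2 (-0.38 to -0.55, adjusted p of 0.052 to 0.13), and with no filter, rescaling to one upper quartile or one total, no trend or only the groups compared (adjusted p of 0.052 to 0.097). Fbl, the nucleolar methyltransferase fibrillarin, fell by 0.22 with MS023 (adjusted p = 0.0042), and 21.8% of its 31-base words occur in other genes. Hnrnpa1 rose by 0.19 with GSK3368715 (adjusted p = 0.033), lost in the same 8 fits (0.17 to 0.20, adjusted p of 0.052 to 0.084) and with no filter, the same upper quartile or only the groups compared (adjusted p of 0.087 to 0.10), and 29.9% of its 31-base words occur in other genes.

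PRMT5 methylates Sm proteins for assembly of the spliceosome. Of 4 Sm and Sm-like proteins, 1 (the Sm-like Lsm4) was lower in the knockdown and 2 were lower with MS023 by limma with Benjamini-Hochberg adjustment. With GSK3368715 0 were called (0 at an unadjusted p below 0.05 and 0 by edgeR and DESeq2). Among all 13014 genes, 3393 had an unadjusted p below 0.05, edgeR called 1242 and DESeq2 1794. Of all genes, 14.7%, 27.9% and 9.64% were called in either direction, and 7.17%, 14.1% and 4.47% were called lower. In the knockdown DESeq2 called 2 of the 4, against 2151 of the 11485 genes tested. The median log2 changes were -0.23, -0.19 and -0.09. Lsm4 fell by 0.36 in the knockdown (adjusted p = 0.037), lost without shControl library 1 or 3 or shPrmt1 library 1 or 3 (-0.31 to -0.40, adjusted p of 0.059 to 0.15), and with the same total or no trend (adjusted p of 0.053 and 0.071). Snrpb fell by 0.23 with MS023 (adjusted p = 0.015), lost without MS023 library 1 or 2 (-0.18 and -0.22, adjusted p of 0.062 and 0.057). In the knockdown Snrpb was lower in all libraries and not called, with -0.44 (95% interval -0.75 to -0.12, adjusted p = 0.067). Snrpd1 fell by 0.22 with MS023 (adjusted p = 0.024), lost without vehicle library 2 or MS023 library 2 or 3 (-0.18 to -0.20, adjusted p of 0.068 to 0.096). With libraries rescaled to the same upper quartile, the MS023 calls of Snrpb (-0.17, adjusted p = 0.075), Snrpd1 (-0.16, 0.19), Fbl (-0.17, 0.079), Wdr77 (-0.14, 0.23) and Mettl23 (-0.33, 0.080) were lost, and the same directions were kept.

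The last list held genes that supply S-adenosylmethionine, salvage its product, dispose of methylarginine or turn arginine into citrulline. The largest called changes of these lists were in it, for Padi2 and for Ahcy, whose counts are uncertain (below). Of 8 tested, 1 was higher and 3 lower in the knockdown, 1 higher and 1 lower with MS023, and 1 higher and 2 lower with GSK3368715, against 14.7%, 27.9% and 9.64% of all genes called in either direction. With MS023, DESeq2 called 3 of the 8, against 4026 of the 13014 genes tested. The median log2 changes were -0.26, 0.14 and 0.01. Ddah1, which breaks down free asymmetric dimethylarginine, had 889, 858 and 882 normalized counts in shControl and 1393, 1364 and 1448 in shPrmt1 libraries, with no overlap. It rose by 0.68 in the knockdown, 0.41 with MS023 and 0.28 with GSK3368715 on the log2 scale (limma with Benjamini-Hochberg adjustment, adjusted p of 0.00049, 0.0028 and 0.043). The GSK3368715 call was lost without vehicle library 1 or 3, GSK3368715 library 1 or 3 or any MS023 library (0.21 to 0.29, adjusted p of 0.066 to 0.13), and with no filter, the same upper quartile, no trend or only the groups compared (adjusted p of 0.057 to 0.11). Padi2, which turns arginine into citrulline, had 417, 257 and 366 normalized counts in shControl and 125, 66.7 and 89.8 in shPrmt1 libraries, and fell by 1.89 (adjusted p = 0.0022). With MS023 it had 444, 328 and 250, with GSK3368715 460, 250.3 and 344, and with vehicle 803, 648 and 715, and it fell by 1.12 (adjusted p = 0.0053) and 1.08 (adjusted p = 0.017). The latter was lost without vehicle library 3 (-1.08, adjusted p = 0.056) or GSK3368715 library 2 (-0.85, adjusted p = 0.051).

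Ahcy, which removes S-adenosylhomocysteine, had 777, 708 and 1089 normalized counts in shControl and 145, 176 and 171 in shPrmt1 libraries, and fell by 2.36 on the log2 scale (limma with Benjamini-Hochberg adjustment, adjusted p = 0.00012). With vehicle it ranged from 357 to 1220, and 71.4% of its 31-base words occur in other genes, most often in Gm4737, so its counts are uncertain. Jmjd6 fell by 0.49 in the knockdown (adjusted p = 0.0043) and by 0.34 with GSK3368715 (adjusted p = 0.026), the latter lost without GSK3368715 library 2 (-0.28, adjusted p = 0.077) and with the same upper quartile, no trend or only the groups compared (adjusted p of 0.057 to 0.075). Mtap, whose loss raises the PRMT5 inhibitor methylthioadenosine, was expressed in all libraries, with group means of 4557 in shControl and 4322 in shPrmt1 and of 11493, 12686 and 12162 with vehicle, MS023 and GSK3368715. Its log2 changes were -0.08, 0.14 and 0.08, none of them called. It was called lower in the knockdown without shPrmt1 library 2 (-0.16, adjusted p = 0.0498), and higher with MS023 without vehicle library 2 (0.18, adjusted p = 0.022), with the same total and by DESeq2. Padi4 was under the minimum and was not tested.

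**Figure D4:**
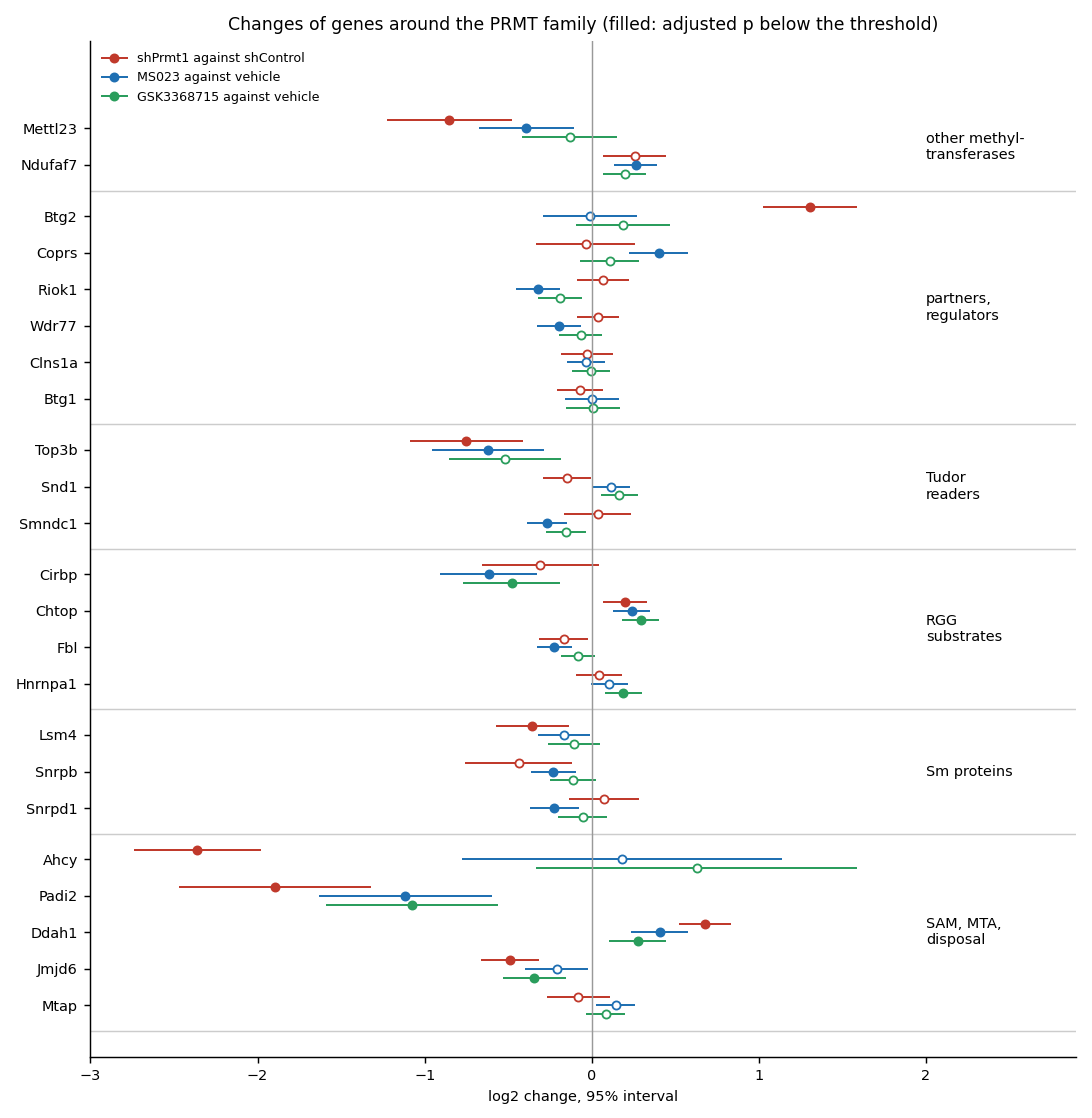
Log2 change (x axis) with its 95% interval from limma for the named genes of 6 lists around the family, in the knockdown and under each inhibitor, with filled points where the adjusted p was below 0.05. Ddah1 lies right of 0 and Padi2 left of 0 in all 3 comparisons, while Btg2 is filled in the knockdown alone and Riok1, Coprs and Wdr77 with MS023 alone.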

How the data were processed

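RNA from 15 CT26 libraries was measured by paired-end sequencing. The authors quantified reads with Salmon 1.4.0 on mm10, and deposited 1 table per experiment of a normalized signal, each gene's estimated reads over the DESeq2 size factor of its library. All values (100%) were whole multiples of 1 read within 0.01, so whole reads were recovered, and 17284091 to 93697833 per library limit the precision. No per-sample column was left unused (0). The deposited comparison tables, which hold log2 fold changes and p-values, were not used.

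Genes that reached 10 normalized counts in 3 or more libraries were tested as log2(normalized count + 1) by limma 3.58.1 (R 4.3.3, trend, two-sided, Benjamini-Hochberg over all genes tested, threshold 0.05), in 1 fit for the knockdown, 1 for the inhibitors and 1 over both for differences. Changes of low genes are understated on this scale. edgeR 4.0.16 called 1712, 3620 and 1242 genes and DESeq2 1.42.0 2151, 4026 and 1794 on the recovered reads for the knockdown, MS023 and GSK3368715. Other settings tried were pseudocounts of 0.5 and 5, dropping the filter or raising it to 50, scaling libraries to one upper quartile or to one total, a fit with no trend, a replicate block, fewer groups per fit and leaving out each library. The fits were tested on simulated data.

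All 9 members are named. From each list are named up to 4 genes called in any comparison, those with the largest absolute log2 change, and Wdr77, Clns1a, Riok1, Coprs, Mtap, Btg1 and Btg2 whatever their result. Members and lists were chosen with earlier results of these data known. Exon lengths are from GENCODE M21. Intervals of changes come from the limma fits and rest on the spread between libraries, and the floor of 3 reads covers counting error only.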

Additional observations from a re-analysis of the deposited data

Results flagged for a closer look

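The knockdown change and an inhibitor's change differed, in a test of the difference itself (limma with Benjamini-Hochberg adjustment), for 2 members and 5 genes of the lists. For Prmt1, the hairpin's target, the knockdown change minus the MS023 change was -2.93 and minus the GSK3368715 change -2.99, which follows from the design. For Prmt3 the difference from MS023 was 0.36 (95% interval 0.17 to 0.56, adjusted p = 0.026). It was called under 15 of 23 alternatives, with adjusted p of 0.017 to 0.10 over the 23. Btg2 differed by 1.31 from MS023 (adjusted p = 0.00032) and by 1.12 from GSK3368715 (adjusted p = 0.0014), under all 23 alternatives for both. Riok1 differed by 0.39 from MS023 (adjusted p = 0.01), and by 0.30 with the same upper quartile (adjusted p = 0.055). Ahcy, whose counts are uncertain, differed by -2.54 from MS023 (adjusted p = 0.01) and by -2.99 from GSK3368715 (adjusted p = 0.0052).

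Ddah1 differed by 0.40 from GSK3368715 (adjusted p = 0.032). That call was lost without any shControl library, shPrmt1 library 3, vehicle library 2 or 3, GSK3368715 library 1 or 2 or MS023 library 3 (0.34 to 0.42, adjusted p of 0.0502 to 0.086), and with the same upper quartile (0.36, 0.11). Snd1, a Tudor-domain protein, differed by -0.26 from MS023 (adjusted p = 0.04) and by -0.31 from GSK3368715 (adjusted p = 0.025). The first was lost without any shControl library, vehicle library 1 or 3, GSK3368715 library 1 or any MS023 library (-0.25 to -0.27, adjusted p of 0.052 to 0.10), with no filter (0.073) and with no trend (0.057). The second was lost without shControl library 1 or 3, vehicle library 3 or GSK3368715 library 1 or 3 (-0.28 to -0.32, adjusted p of 0.0502 to 0.073), and with the same upper quartile (-0.35, 0.052).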

How the results depend on the processing

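Of 712 values of single members' changes under the alternatives, 673 kept direction and side of the threshold. No member was called with GSK3368715, against 2 with DESeq2 and 0 to 1 with 1 library left out, 1 being without vehicle library 2. For the knockdown change minus the MS023 change, 2 members were called, against 1 with the same upper quartile and 1 to 2 with 1 library left out. Scaled to the longest transcript in place of the exon union, the share of Prmt1 was 47.7% in shControl and 48.2% with MS023, and 31 of 45 shares moved by over 1 SD, a change in the lengths alone.

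Directions turned only where the change was near 0 and not called, and the cause was not tested. With 1 library left out, log2 changes in the knockdown ran from -0.0076 to 0.060 for Prmt2, -0.072 to 0.024 for Prmt3 and -0.050 to 0.046 for Prmt7. With MS023 that of Prmt6 ran from -0.0060 to 0.076, and with GSK3368715 that of Prmt1 from -0.039 to 0.031 and of Prmt2 from -0.014 to 0.084. The Prmt9 difference between the knockdown and MS023 ran from -0.14 to 0.063, and that from GSK3368715 from -0.035 to 0.16. Clns1a ran from -0.058 to 0.0011 in the knockdown and -0.029 to 0.011 with GSK3368715, and Btg1 from -0.035 to 0.065 with MS023 and -0.056 to 0.071 with GSK3368715. With the same upper quartile, Prmt7 in the knockdown was -0.018, Prmt1 with GSK3368715 4.4e-05, and Clns1a 0.024 with MS023 and 0.0067 with GSK3368715. With the same total, Prmt3 in the knockdown was 0.0085, Prmt1 with GSK3368715 0.0025, and Clns1a 0.0042, 5.1e-05 and 0.0091 in the knockdown, with MS023 and with GSK3368715. With DESeq2, Btg1 with MS023 was -0.00040.

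Over all genes, 1684 were called in the knockdown (652 to 2671 under the alternatives), 3625 with MS023 (2409 to 4026), 1254 with GSK3368715 (586 to 1794), 67 between the inhibitors (2 to 365), and 875 (505 to 1105) and 471 (286 to 565) for the differences from MS023 and GSK3368715. The labels do not say that replicate numbers pair the libraries. Same-numbered libraries correlated at 0.061, 0.12 and 0.081 in the knockdown, where each of the 6 correlated best with its own number, a hint from the data, and at -0.10 to 0.11 in the inhibitor experiment. The replicate block called 2671 genes in the knockdown, 3219 with MS023 and 860 with GSK3368715. With the replicate block the members called were 1 in the knockdown, 4 with MS023 (Prmt5 added, adjusted p = 0.047), 0 with GSK3368715, 0 between the inhibitors, and 2 and 1 for the differences. In the block the calls of Ddah1 (adjusted p = 0.075), Jmjd6 (0.059), Cirbp (0.073) and Hnrnpa1 (0.067) with GSK3368715 and of Mettl23 (0.060) with MS023 were lost.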
